A study of Mus musculus with 2 samples.

Results

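The genes described here encode the proteins of the cytosolic ribosome. They are all rows of the deposited table named Rpl or Rps followed by a digit, together with Rpsa, Rplp0, Rplp1 and Rplp2. Pseudogene names with -ps, the Rps6k kinases and the mitochondrial Mrp genes were left out. This removed 21 rows with an Rpl or Rps name that the prefix alone would take. This name rule, which uses no measured value, gave 89 genes of the 22836 listed. Of them, 46 encode proteins of the large subunit, 3 of which form its stalk, and 31 encode proteins of the small subunit. These 77 are called canonical below. The other 12 are paralogues, retrogenes and Rps19bp1, whose product binds a ribosomal protein and is not part of the ribosome. All 89 had a single position in the GENCODE M21 annotation and reads in the kept cells. That annotation lists Rpl32l as a processed pseudogene, and Rpl37rt and Rps4l as transcribed processed pseudogenes.

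The cells were single CD45+ cells sorted from tumours that the mouse colon carcinoma line Colon26 formed under the skin of wild-type BALB/c mice. The labels also call the cells intestinal, although the tumours were subcutaneous. 4 groups of mice were compared: Control, untreated (n = 3); minP1, given 0.08 µg of a peptide of the nucleosome-binding protein HMGN1 into the peritoneum on day 9 (n = 4); PDL1, given 200 µg of the anti-PD-L1 antibody 10F.9G2 by the same route on days 4 and 8 (n = 3); and minP1_PDL1, given both (n = 4). All tumours were taken on day 10, and each mouse carried its own hashtag and is 1 replicate. After filtering, 7732 cells with 26007800 to 51230500 reads a mouse remained.

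A ribosome is built from a large and a small subunit, and each canonical protein belongs to 1 of them. The stalk proteins recruit the elongation factors. Most mRNAs of ribosomal proteins begin with a C followed by a run of pyrimidines, the 5′ terminal oligopyrimidine or TOP motif, through which their translation follows nutrient and growth signals. In blood and tumours, cells that grow or divide make many ribosomes, and mature granulocytes make few.

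The sequences shown first are the coding starts of the genes whose paralogues moved between cell classes. They are bases 1 to 90 of the GENCODE M21 coding sequences on GRCm38, 5′ to 3′, and capitals mark the bases that differ from the first gene of the family.
Rps27: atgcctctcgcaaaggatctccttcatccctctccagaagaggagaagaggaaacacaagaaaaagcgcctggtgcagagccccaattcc
Rps27rt: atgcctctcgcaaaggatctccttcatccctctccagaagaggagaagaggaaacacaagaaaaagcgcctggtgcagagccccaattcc
Rps27l: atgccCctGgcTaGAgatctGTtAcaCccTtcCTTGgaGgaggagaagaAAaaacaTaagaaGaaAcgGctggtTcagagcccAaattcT
Rpl39: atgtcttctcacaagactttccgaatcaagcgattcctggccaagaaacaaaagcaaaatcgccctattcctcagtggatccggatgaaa
Rpl39l: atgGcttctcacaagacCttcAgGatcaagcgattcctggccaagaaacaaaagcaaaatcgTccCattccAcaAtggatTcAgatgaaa

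Rps27rt, a retrogene, matched Rps27 at all 252 coding bases, and 91.1% of the 50-base words of its transcript also occur in Rps27. Its reads therefore cannot be told from those of Rps27. Rpl37rt shared 35.0% of such words with Rpl37 and Rpl32l shared 19.4% with Rpl32, so their values are uncertain too. Rps27l differed from Rps27 at 60 of 252 bases and Rpl39l from Rpl39 at 23 of 153. Neither shared a 50-base word with its partner, nor did Rpl22l1 with Rpl22, Rpl36al with Rpl36a, Rpl7l1 with Rpl7 or Rps4l with Rps4x. Reads of this length or longer can separate these pairs.

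The next set shows the transcription starts of some of the genes that the results return to. Each line holds 15 bases before and 15 from the annotated start in RefSeq (GRCm38.p6), 5′ to 3′ on the gene's strand, and capitals mark a C followed by 4 bases that are each C or T, where the copy nearest to the start begins within 5 bases of it. Other copies are not marked.
Rplp2 (chr7:141447636-141447665, plus strand): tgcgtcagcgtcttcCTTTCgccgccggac
Rpl35 (chr2:39005117-39005146, minus strand): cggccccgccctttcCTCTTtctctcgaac
Rps27 (chr3:90213634-90213663, minus strand): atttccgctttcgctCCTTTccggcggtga
Rps9 (chr7:3704026-3704055, plus strand): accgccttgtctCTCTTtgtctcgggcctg
Rpl22l1 (chr3:28805493-28805522, plus strand): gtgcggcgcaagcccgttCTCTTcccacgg
Rpl39l (chr16:10170213-10170242, plus strand): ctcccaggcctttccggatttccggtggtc

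The 5-base pattern was searched on the coding strand only. It began exactly at the annotated start in 13 of 67 starts of canonical genes (19.4%), against 823 of 32851 starts of all genes in the table (2.51%). Within 5 bases of the start it was found in 29 of the 67 (43.3%), against 6027 of all (18.3%). The table matched 68 of the 89 genes, 57 of them canonical. In Rpl39l no copy began within 5 bases of the start. The same held for Rpl10, Rpsa, Rpl22 and Rplp0, which the results also return to and whose starts are not shown.

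In the kept cells, 69186604 of 512747663 reads (13.5%) fell on the 89 genes, and 98.2% of these on the 77 canonical ones. A canonical gene had between 49849 and 2357413 reads. Rpl10l, Rpl32l, Rpl3l and Rps4l were near the floor, with 27, 531, 992 and 2427 reads in all.

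Cells were grouped without using any of the 89 genes, so that the classes do not rest on them. Classes were named from marker genes: 1762 cells were T-like, 1526 NK-like, 2465 monocyte- or macrophage-like, 327 dendritic-cell-like (DC-like), 171 plasmacytoid-DC-like (pDC-like) and 599 neutrophil-like. A cluster of 490 cells led by Mgp, Timp3 and Col1a2 had few of the sorted antigen's transcripts: Ptprc, which encodes CD45, averaged 39.6 ± 30.4 CPM there (SD, n = 14; CPM is the reads of a gene per 1000000 reads of a mouse in the class), against 1063 to 2470 in the other classes named. The files do not say what these cells are, and they are called the Mgp-led cluster. The study states 7613 cells, the table holds 8115 barcodes of the mice, and 7732 were kept here. Barcodes that the authors marked as hashtag doublets (141) were left out, and doublets within a mouse were not called.

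The share of a class's reads in ribosomal protein genes ran from under 10% to nearly 20%. In the Mgp-led cluster it was 18.4% in the lowest mouse, 19.0% at the median and 20.1% in the highest, with a mean of 19.2 ± 0.53% (SD, n = 14). NK-like cells came next with a mean of 15.2 ± 0.59% (14.2% to 16.2%). T-like cells followed with 14.3 ± 0.65% (12.9% to 15.3%).

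The myeloid classes held less. Monocyte- and macrophage-like cells had 11.8 ± 0.50% (10.9% to 12.5%), DC-like cells 11.6 ± 0.63% (10.7% to 12.7%) and pDC-like cells 12.1 ± 1.53% (10.2% to 14.1%, n = 11 mice with at least 10 such cells). Of the classes with at least 10 cells in all 14 mice, neutrophil-like cells had the lowest and most variable share, 9.31 ± 1.51% (6.39% to 11.7%).

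Within a mouse this order was nearly always kept. The Mgp-led cluster stood above NK-like cells in 14 of 14 mice, NK-like above T-like cells in 13 of 14, T-like above monocyte- and macrophage-like cells in 14 of 14, and these above neutrophil-like cells in 14 of 14. Monocyte- and macrophage-like cells exceeded DC-like cells in 8 of 14 mice only, so those neighbours did not differ beyond their spread. Since the share is a score over the chosen genes, it is described without a test. Depth moved with it in some classes: over single cells, Spearman's rho between a cell's share and its reads was 0.73 in neutrophil-like cells (599 cells), 0.47 in NK-like, 0.40 in monocyte- and macrophage-like and 0.24 in T-like cells, and -0.003 in the Mgp-led cluster. These points share a library, and the part of depth in the order of classes was not tested.

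**Figure D1:**
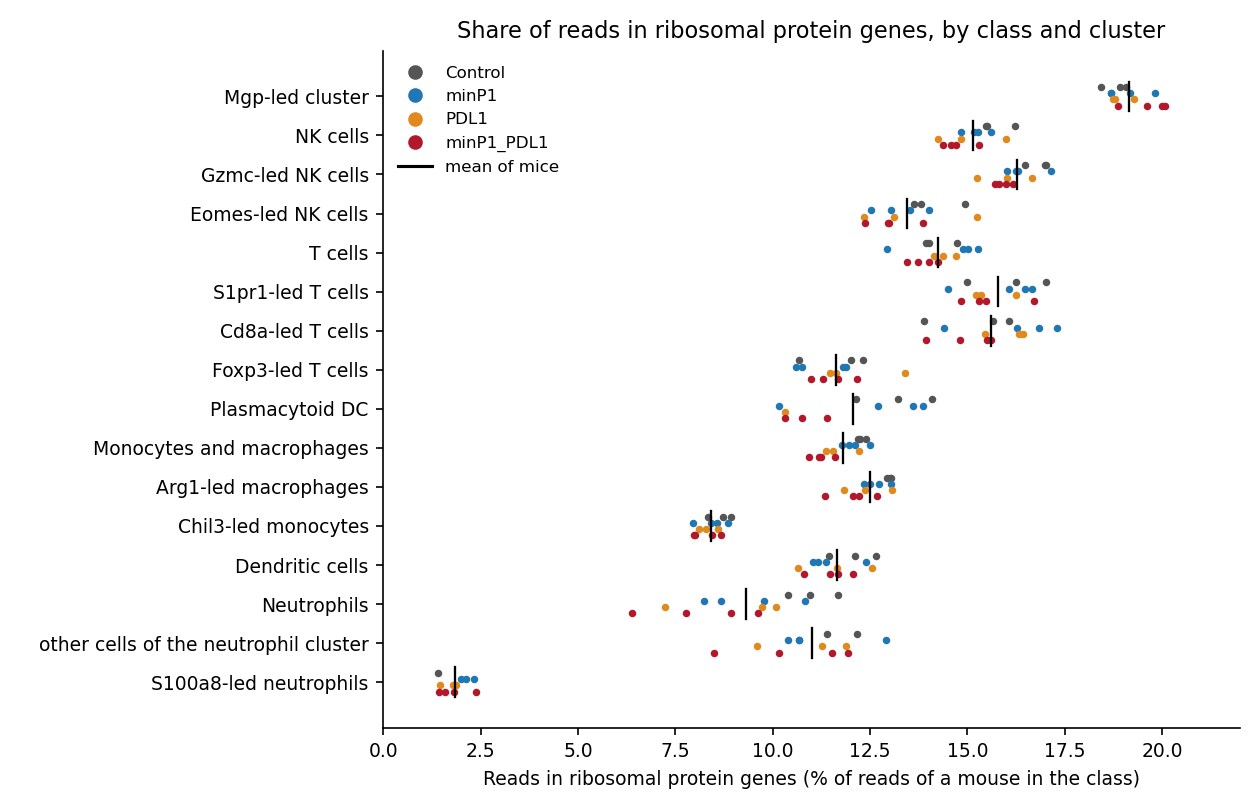
Percent of reads in the 89 ribosomal protein genes (x axis), 1 point a mouse, for each class and for clusters within classes (y axis). Points are coloured by treatment group and black lines are means. The Mgp-led cluster sits between 18.4% and 20.1%, and the S100a8-led neutrophil-like cells between 1.40% and 2.38%.

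Clusters within a class differed too. Among T-like cells, the S1pr1-led cluster, led also by Tcf7, Il7r and Bcl11b, had a mean share of 15.8 ± 0.79%, and the Foxp3-led cluster, whose leading gene defines regulatory T cells, had 11.6 ± 0.76%. The first was higher in 14 of 14 mice, by 4.18 percentage points on average. The Cd8a-led cluster (15.6 ± 1.04%) also exceeded the Foxp3-led one in every mouse. It exceeded the S1pr1-led one in 7 of 14, so these did not separate.

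Among NK-like cells, the Gzmc-led cluster (16.3 ± 0.54%) stood above the Eomes-led cluster (13.5 ± 0.88%) in 14 of 14 mice. Median depth differed in the same direction, with 37730 reads a cell in the Gzmc-led and 23324 in the Eomes-led cluster. For the S1pr1-led and Foxp3-led T-like cells depth went the other way, with medians of 16383 and 21082 reads. The Cd8a-led cells, whose share also exceeded that of the Foxp3-led ones, had a higher median depth than these, 49760 reads.

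Within the monocyte- and macrophage-like class, the Arg1-led cluster, led also by Pf4, C1qa and Hmox1, had 12.5 ± 0.52%. The Chil3-led cluster, led also by Thbs1, Vcan and Ly6i, had 8.42 ± 0.32%. The difference was 4.1 ± 0.43 points (SD of 14 mice), present in 14 of 14. Arg1-led cells had more reads (median 109963 against 47529). A C1qc-led cluster with a median of 8140 reads held 13.3 ± 1.67% (n = 11).

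The neutrophil-like cluster was a mixture. Its 333 S100a8-led cells (Cxcr2, Csf3r and Acod1 among the leading genes) had a share of 1.83 ± 0.35% (1.40% to 2.38%, n = 11 mice with at least 10 such cells), and the other 266 cells 11.01 ± 1.18% (8.50% to 12.9%, n = 13). Compared with the S100a8-led cells, those 266 were led by genes of NK cells and an MHC class II gene. Neutrophil marker genes summed to 9396 CPM in them and to 50986 in the S100a8-led cells, monocyte and macrophage markers to 6061 and 1638, NK markers to 3417 and 168, and T cell markers to 2721 and 517. NK markers summed to 2442 CPM in Arg1-led cells and to 11825 in NK-like cells. The 266 cells gave 80.2% of the cluster's reads, so values summed over the cluster rest mainly on them. Nkg7, a granule gene of NK and T cells, averaged 638 and 34.3 CPM. Their median depth was 50164 reads a cell, against 11448. Sub-clusters were made after the data were seen, without the ribosomal protein genes, and are described only.

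By single cell, 320 of the 333 S100a8-led cells (96.1%) had under 5% of their reads in ribosomal protein genes, and their median was 1.34%. In the whole cluster 345 of 599 cells were under 5%, compared with 19 of 1762 T-like and 12 of 1526 NK-like cells. Within the S100a8-led cells rho between share and reads was 0.02.

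**Figure D2:**
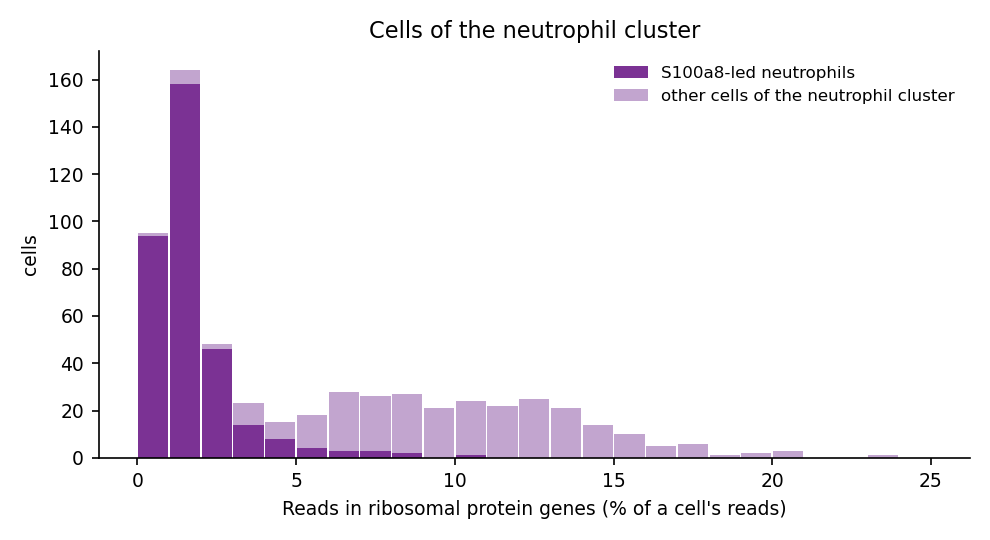
Number of neutrophil-like cells (y axis) by the percent of each cell's reads in ribosomal protein genes (x axis), with bars stacked for the 333 S100a8-led cells and the 266 others. The S100a8-led cells gather below 5% with a median of 1.34%, and the others around a median of 10.0%.

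Next, each gene was compared between classes with edgeR's quasi-likelihood test on reads summed per mouse and class, with the mouse as a block and Benjamini-Hochberg adjustment over all genes tested. A gene is called at an adjusted p under 0.05. Changes are log2 values on edgeR's TMM scale, which removes a general shift between classes and so gives smaller differences than the read share: T-like cells had 1.21 times the share of monocyte- and macrophage-like cells, but the median log2 change of the ribosomal protein genes was 0.04.

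NK-like cells were higher than T-like cells for 61 of the 85 genes tested and lower for 2, while 9.85% of all 10801 genes tested were higher and 8.94% lower. The median log2 change was 0.18 over the 85 genes and -0.01 over all genes. Rpl10l, Rpl32l, Rpl3l and Rpl39l had too few reads to be tested. Of the large subunit genes 35 of 46 rose and none fell, and of the small subunit genes 25 of 31 rose and 1 fell. Both classes are mixtures: the mean share was 15.8% in S1pr1-led, 15.6% in Cd8a-led and 11.6% in Foxp3-led T-like cells. It was 16.3% in Gzmc-led and 13.5% in Eomes-led NK-like cells. The part of this make-up in the result was not tested.

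Rpl10, which encodes a late-joining protein of the large subunit, differed most. Its level in NK-like cells was 2855 CPM in the lowest mouse, 3126 at the median and 3521 in the highest, against 1924, 2111 and 2339 in T-like cells. The groups did not overlap. The log2 change was 0.66 ± 0.03 (SE; edgeR's quasi-likelihood test, adjusted p = 8.14e-12).

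Rpl38 (0.39), Rpl23 (0.38) and Rpl36a (0.34) were also higher on the log2 scale. Rpsa, the small subunit protein that also serves as a laminin receptor, fell by 0.14, with 2230 to 2921 CPM in NK-like and 2798 to 3343 in T-like cells. Rpl7l1, a paralogue of Rpl7 used in ribosome assembly, fell by 0.57. It no longer passed when clusters were made with the ribosomal protein genes (adjusted p = 0.0854 by edgeR's quasi-likelihood test).

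Of the stalk genes, Rplp1 (0.18) and Rplp2 (0.11) were called higher in NK-like cells, and Rplp0 had a log2 change of -0.03 that was not called. Other genes of the pathway moved alongside in part. Of 16 translation factor and TOP-class genes outside the set, 8 were higher and 1 lower, among them the elongation factor genes Eef1a1 (0.29) and Eef1g (0.31) and the poly(A)-binding protein gene Pabpc1 (0.42). Of 23 ribosome biogenesis genes, 5 were higher and none lower, including Myc (0.99), a growth regulator, and Nolc1 (0.51), a nucleolar protein gene. Of 78 mitochondrial ribosome genes, 4 were higher and 3 lower. Over all 10801 genes tested, 1064 were higher and 966 lower.

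T-like cells differed from monocyte- and macrophage-like cells in both directions, with 23 of 87 genes higher and 16 lower. Over all 12193 genes tested, 18.9% were higher and 25.9% lower. In both directions together 39 of 87 were called, about the same share as the 5462 of 12193 over all genes. When no filter on low counts was applied the split became 10 higher and 27 lower, and the median of all genes moved from -0.05 to -0.22 with it. With RLE scaling the split was 21 higher and 17 lower.

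At the top stood Rpsa, at 2798 to 3343 CPM in T-like and 1760 to 2137 in monocyte- and macrophage-like cells, with a log2 change of 0.47 ± 0.03 (SE). Rpl13a (0.44), Rpl5 (0.33), Rpl4 (0.29) and Rpl12 (0.28) also rose. The product of Rpl13a is known for a second role in silencing inflammatory mRNAs, and that of Rpl5 for binding Mdm2. Of the stalk genes, Rplp0 (0.28) and Rplp2 (0.10) were called higher and Rplp1 (0.04) was not called.

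At the bottom stood genes of the paralogue group. Rps27l, a gene known to be induced by p53, had 154 to 274 CPM in T-like cells and 249 to 374 in monocyte- and macrophage-like cells, with a log2 change of -0.86 ± 0.08 (SE). Rps19bp1 (-0.71) and Rpl7l1 (-0.40) were called lower too, as was Rps4l (-2.56), which had 134 reads in all T-like cells and lost its call when any of 6 mice was left out (Control 1, Control 2, minP1 1, minP1 3, minP1 4 or minP1_PDL1 4). Rpl10 fell by 0.43, from 2218 to 2694 CPM in monocyte- and macrophage-like cells to 1924 to 2339 in T-like cells. It was thus higher in both NK-like and monocyte- and macrophage-like cells than in T-like cells.

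Outside the set, 9 of 16 TOP-class genes were higher in T-like cells and 1 was lower. The elongation factor gene Eef2 (0.44) led them. Of the 11 genes that control TOP translation, Eif4ebp1, which encodes a repressor of cap-dependent translation, fell by 2.39. Rheb was called lower too (-0.58), and Eif4ebp2 (0.45) and Rps6kb1 (0.33) rose. Mitochondrial ribosome genes were lower for 28 of 78 and higher for 2. Over all 12193 genes tested, 3155 were lower and 2307 higher.

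Neutrophil-like cells were lower than monocyte- and macrophage-like cells for 76 of 87 genes and higher for none, with 17.6% of all 11555 genes lower and 7.87% higher. The median log2 change over the 87 genes was -0.31, and over all genes it was -0.46. All 77 canonical genes had a change below 0, and the median of the set lay nearer to 0 than that of all genes. When the low-count filter was dropped, the median of all genes moved to -0.66. These are sums of reads, and 80.2% of the reads came from the cells that were not S100a8-led. The part of this mixture in the result was not tested.

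The named genes of that comparison were Rps4l (-2.73), Rps27l (-0.85), Rpl36al (-0.57), Rpl22 (-0.46) and Rpl26 (-0.45). Rpl36al is a paralogue of Rpl36a, and the product of Rpl26 binds p53 mRNA. All of the stalk genes fell: Rplp1 by 0.35, Rplp0 by 0.26 and Rplp2 by 0.22. Rps9, a core protein of the small subunit, had the smallest called change, -0.16. Of the TOP-class genes outside the set 11 of 16 fell, and of the biogenesis genes 5 of 23, against 2035 of 11555 over all genes. The biogenesis count is near that share.

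DC-like cells hardly differed from monocyte- and macrophage-like cells, with 7 of 87 genes higher and 2 lower, against 5.59% and 11.4% of all 11631 genes. The median was -0.00 for the set and -0.30 for all genes. Without the low-count filter the split was 3 higher and 20 lower, with the median of all genes at -0.62.

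The exception was Rps27l: DC-like cells had 297 to 741 CPM with a median of 496, against 249 to 374 with a median of 300. Its log2 change was 0.75 ± 0.10 (SE; edgeR's quasi-likelihood test, adjusted p = 2.79e-05). Rpsa (0.27), Rpl21 (0.22) and Rpl28 (0.19) also rose. Rps15a fell by 0.18 and Rpl37a by 0.14, the latter losing its call when any of 11 mice was left out, all except minP1_PDL1 3, minP1_PDL1 4 and PDL1 2. No stalk gene and no mitochondrial ribosome gene was called, and Fbl, which encodes the rRNA methyltransferase fibrillarin, rose by 0.73. Of the 78 mitochondrial ribosome genes, 10 had an unadjusted p under 0.05 by edgeR's test, a smaller share than the 30.6% of all genes.

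**Figure D3:**
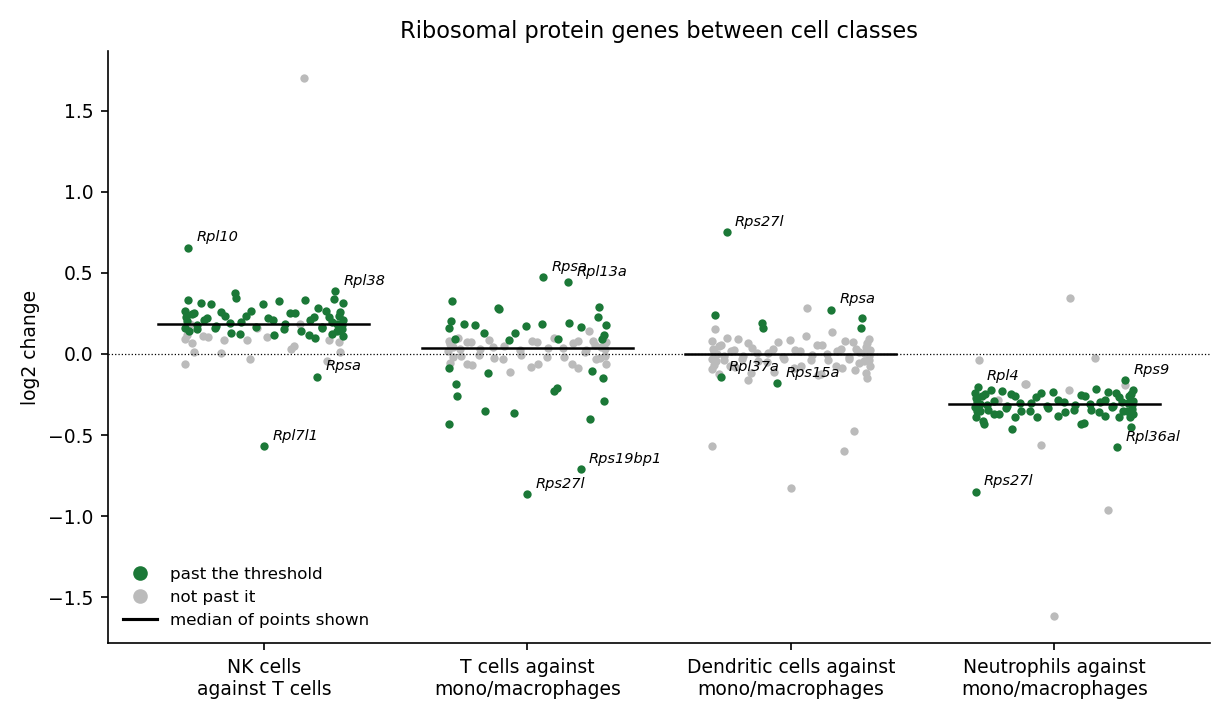
Log2 change of each tested ribosomal protein gene (y axis) in 4 comparisons between classes (x axis), with called genes in green, the others in grey and the median as a black line. 2 points beyond 2 log2 units are not drawn, and labels name selected genes. NK-like against T-like cells lie mostly above 0 (median 0.18) and neutrophil-like against monocyte- and macrophage-like cells mostly below (median -0.31).

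Pairs of clusters within a class were compared by counting genes that were higher, or lower, in every mouse. The clusters were chosen after their shares were seen, so the counts are descriptions. S1pr1-led T-like cells were higher than Foxp3-led ones in all 14 mice for 42 of the 77 canonical genes and lower for none, with 1.95% of 7374 genes higher and 1.74% lower. The widest canonical gap was that of Rps27, at 2090 CPM pooled in S1pr1-led and 1077 in Foxp3-led cells (mean log2 difference 0.95 ± 0.23, SD of 14 mice). Its retrogene Rps27rt, which cannot be told from it, also had a difference of 0.95. Rps29 (0.79) and Rpl35a (0.73) followed, and Rpl41 was level (-0.04).

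Gzmc-led NK-like cells were higher than Eomes-led ones in every mouse for 42 of 77 canonical genes and lower for none, with 1.65% of 7281 genes higher and 2.01% lower. Here Rpl35 (0.58), Rps19 (0.51) and Rpsa (0.48) led. Rps27 was level here (-0.01), and the difference between the T-like and NK-like pairs was not tested.

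Chil3-led cells were lower than Arg1-led cells in every mouse for 76 of 77 canonical genes and higher for none, with 6.44% of 7300 genes lower and 6.48% higher. Rpl12, a protein at the base of the stalk, went furthest, at 975 CPM pooled in Chil3-led and 1965 in Arg1-led cells (mean log2 difference -1.01 ± 0.19, SD of 14 mice). Rpl36a (-0.89), Rps15a (-0.89) and Rpl32 (-0.83) came next. The exception was Rps9, at -0.06 ± 0.13, and the median over the canonical genes was -0.59.

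S100a8-led neutrophil-like cells were lower than Chil3-led cells for all 77 canonical genes in each of 11 mice, with 13.9% of 5442 genes lower and 5.66% higher. On pooled reads the median log2 difference was -2.22 over the canonical genes and -0.34 over all genes. Rps9 was again nearest to 0, at 1131 CPM against 2638 (-1.22), and Rps27 followed (-1.27). Rps4x, the X-linked copy of a small subunit gene (-2.79), and Rps18 (-2.73) were at the other end, with Rplp0 at -2.66.

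The Mgp-led cluster was higher than NK-like cells, the class of next highest share, in all 14 mice for 48 of 77 canonical genes and lower for 5, with 10.5% of 6566 genes higher and 12.8% lower. Set against the median of 4 immune classes (T-like, NK-like, monocyte- and macrophage-like, DC-like), 64 of the 77 canonical genes were higher in all 14 mice and 2 were lower in all, against 13.8% and 14.4% of 6736 genes. The median log2 difference was 0.54 over canonical genes and 0.07 over the 6736. Rplp1 averaged 7324 ± 366 CPM there (SD, n = 14), against 4958 ± 250 in NK-like cells. Rpl35 (1.19), Rps2 (1.15) and Rpl36 (1.15) had wide gaps, and Rpl22 (-0.92) and Rps23 (-0.31) were the canonical genes lower in every mouse.

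Paralogues went in both directions in the Mgp-led cluster, with mean log2 differences from that median of 7.87 for Rpl39l, 1.36 for Rpl22l1, 1.22 for Rps27l, 0.45 for Rpl7l1 and -0.14 for Rpl36al. Rps4l had 7 reads in the cluster. Rpl39l, the copy of Rpl39 known from the testis, had 390 CPM in the lowest mouse, 573 at the median and 707 in the highest. In the other classes the class mean of Rpl39l was at most 7.32 and its highest value in any mouse 43.0. Rpl39 itself averaged 1436 ± 99.0 in the Mgp-led cluster and 1773 in NK-like cells. The Rpl39l values of the Mgp-led cluster thus lay apart from those of all other classes.

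Rpl22l1 and Rpl22, a pair known to regulate each other's RNA, went opposite ways. Rpl22l1 had 977 to 1421 CPM in the Mgp-led cluster, with a mean of 1133 ± 116, against means of 308.2 to 531.7 in the immune classes. Rpl22 averaged 385 ± 59.7 there, against 484 to 811. The ratio of Rpl22l1 to Rpl22, which is not corrected for transcript length, was 3.01 ± 0.56 (SD, n = 14) in the Mgp-led cluster and 0.54 to 0.70 on average in the immune classes.

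Rps27l followed another order, with 621 ± 142 CPM in the Mgp-led cluster, 521 ± 120 in DC-like cells and 269 ± 95.2 in pDC-like cells (n = 11). Rpl36al relative to Rpl36a went from 0.236 in the Mgp-led cluster through 0.424 in NK-like, 0.491 in T-like, 0.609 in monocyte- and macrophage-like and 0.641 in DC-like cells to 0.865 in pDC-like cells. For the retrogenes that share sequence with their parent, the ratio hardly varied, at 0.481 to 0.498 for Rps27rt and 0.464 to 0.509 for Rpl37rt.

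One canonical gene was high in pDC-like cells. Rpl31, singled out after its values were seen, had 2155 to 2935 CPM there, with a mean of 2539 ± 246 (SD, n = 11). Its highest value in any mouse's NK-like cells was 1948, and its means were 1363 in T-like, 1239 in monocyte- and macrophage-like, 1244 in DC-like and 1414 in the Mgp-led cells. The pDC-like values did not overlap with those of NK-like cells.

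**Figure D4:**
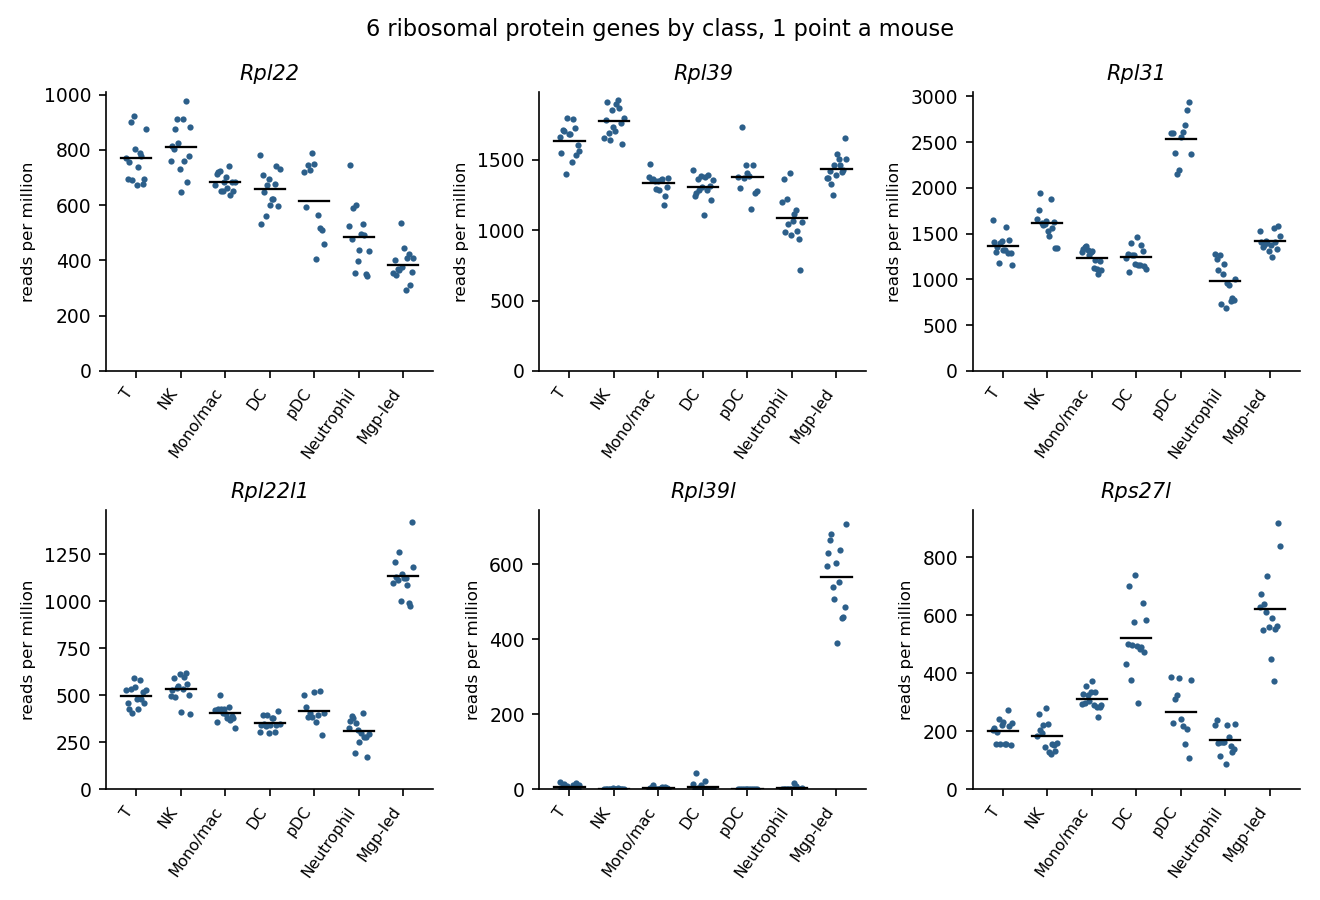
Level in CPM (y axis, from 0) of Rpl22, Rpl39, Rpl31, Rpl22l1, Rpl39l and Rps27l by class (x axis), 1 point a mouse with the mean as a line. Class names are shortened. Rpl39l is near 0 outside the Mgp-led cluster, where it runs from 390 to 707, and Rpl31 is highest in pDC-like cells.

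The treatment comparison asked whether the peptide, the antibody or both changed these genes in the tumour's CD45+ cells. Over all kept cells, the share was 14.8%, 14.0% and 14.4% in the Control mice, 14.1%, 12.9%, 13.2% and 13.3% in minP1, 13.8%, 12.5% and 13.8% in PDL1, and 13.5%, 13.3%, 12.1% and 12.7% in minP1_PDL1. All minP1_PDL1 mice and all PDL1 mice lay below the lowest Control mouse, with mean differences from Control of -1.504 and -1.05 percentage points, and minP1 overlapped with Control (-1.03 points). In a sum over cells, fewer cells of a type and less RNA per cell cannot be told apart.

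Reads of the Mgp-led cluster, whose share is high, were 16.7% to 28.9% of all in Control mice and 6.76% to 24.3% in minP1_PDL1 mice. Without the Mgp-led and Krt8-led clusters the share was 13.2%, 13.0% and 13.1% in Control and 11.8%, 12.5%, 11.5% and 11.7% in minP1_PDL1. These groups did not overlap either. The PDL1 mice, at 11.9%, 12.2% and 12.9%, also lay below every Control mouse and overlapped with minP1_PDL1. The minP1 mice (13.2%, 12.3%, 12.7% and 12.7%) overlapped with Control. Reads from mitochondrial genes were 6.19% to 6.47% in Control and 5.67% to 6.12% in minP1_PDL1.

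Monocyte- and macrophage-like cells had a share of 12.2%, 12.4% and 12.2% in Control mice, 12.5%, 11.97%, 11.8% and 12.1% in minP1, 11.4%, 11.6% and 12.2% in PDL1, and 10.9%, 11.6%, 11.2% and 11.2% in minP1_PDL1. The minP1_PDL1 mice were below both Control (-1.03 points) and minP1 (-0.85 points) without overlap. They overlapped with the PDL1 mice. The Chil3-led cluster, whose share is low, gave 13.5% to 19.0% of the class's reads in Control and 13.6% to 26.6% in minP1_PDL1. Within Arg1-led cells minP1_PDL1 (11.3%, 12.7%, 12.1% and 12.2%) also lay below Control (12.9%, 13.0% and 13.0%) without overlap. There minP1_PDL1 overlapped with minP1 (13.05%, 12.3%, 12.5% and 12.7%). Within Chil3-led cells minP1_PDL1 overlapped with Control.

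NK-like cells had 15.5%, 15.5% and 16.2% in Control mice and 15.3%, 14.7%, 14.4% and 14.6% in minP1_PDL1, with no overlap. The minP1 mice (15.2%, 14.8%, 15.6% and 15.3%) and the PDL1 mice (14.2%, 14.8% and 16.0%) overlapped with both groups. In T-like cells the means of Control and minP1_PDL1 were 14.2 ± 0.43% and 13.9 ± 0.35% and their mice overlapped, as they did in DC-like cells. Neutrophil-like cells had 10.96%, 11.7% and 10.4% in Control and 8.92%, 7.78%, 6.39% and 9.64% in minP1_PDL1. The PDL1 mice (7.24%, 9.73% and 10.1%) also lay below every Control mouse, and minP1 (9.78%, 8.25%, 10.8% and 8.67%) overlapped with Control. Beside the difference of minP1_PDL1 from Control, S100a8-led cells made up 29.2% to 53.3% of the cluster in Control mice and 58.9% to 65.3% in minP1_PDL1 mice. The part of this mixture was not tested.

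**Figure D5:**
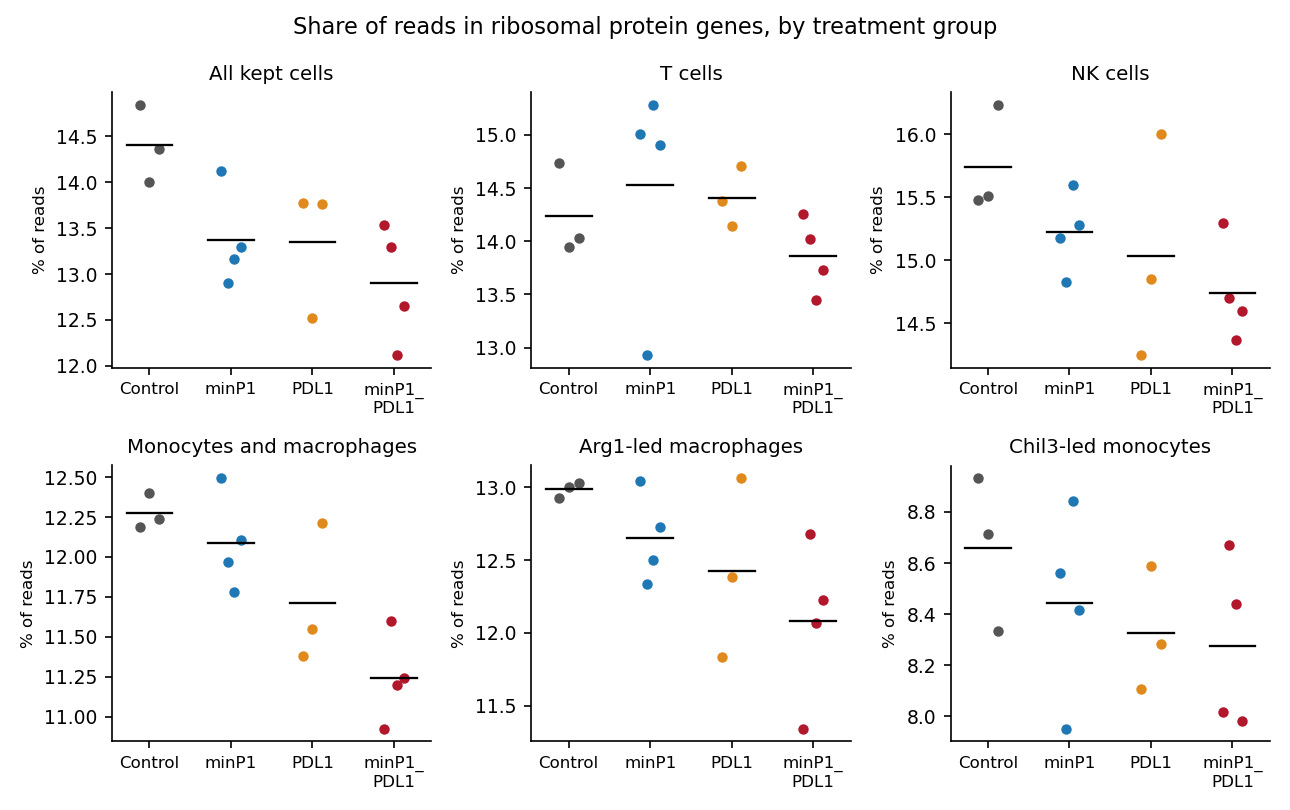
Percent of reads in ribosomal protein genes (y axis, not from 0) by treatment group (x axis) in all kept cells, T-like, NK-like, monocyte- and macrophage-like, Arg1-led and Chil3-led cells, 1 point a mouse with the mean as a line. In monocyte- and macrophage-like cells the 4 minP1_PDL1 mice lie between 10.9% and 11.6%, all below the 3 Control mice.

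No single gene of the set was called in any of the 30 treatment comparisons (6 cell sets, 5 contrasts) by edgeR's quasi-likelihood test with Benjamini-Hochberg adjustment. Of all genes 0% were called in 29 of these comparisons, and in T-like cells of minP1_PDL1 against Control 1 of 12618 (0.00793%). For minP1_PDL1 against Control in all kept cells, 59 of 88 genes of the set had an unadjusted p under 0.05, against 10.4% of all genes. The count was 32 of 88 in monocyte- and macrophage-like cells (7.34% of all genes), 23 of 85 in NK-like (6.16%) and 25 of 85 in neutrophil-like cells (7.61%). It was 3 of 87 in T-like (4.9%) and 2 of 86 in DC-like cells (5.02%), below the shares of all genes. Each single agent against Control in all kept cells had 25 of 88 (minP1, with 1278 of 18410 over all genes) and 24 of 88 (PDL1, with 1211 of 18410). For minP1_PDL1 against PDL1 in all kept cells it was 0 of 88, with 776 of 18410 over all genes.

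DESeq2 called 17 results on the set over the 30 comparisons. For minP1_PDL1 against Control it called 5 of 88 in all kept cells, where it called 0.798% of all genes, 10 of 85 in neutrophil-like cells (0.979%) and 1 of 88 in monocyte- and macrophage-like cells (0.199%). Against minP1 it called 1 of 88 in the last (0.325%).

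In all kept cells 86 of 88 genes had a log2 change below 0 in minP1_PDL1 against Control, with a median of -0.15 against 0.01 for all genes. In monocyte- and macrophage-like cells the median was -0.11, in NK-like -0.12, in neutrophil-like -0.37, in DC-like -0.08 and in T-like cells -0.03. Medians of the set in all kept cells were also below 0 for minP1 (-0.10) and PDL1 (-0.11) against Control. In T-like cells the medians of these contrasts were above 0, at 0.03 for minP1 and 0.03 for PDL1. Both were below 0 in each of the other classes fitted. For minP1_PDL1 against PDL1 the median in all kept cells was -0.04. In all kept cells 50 of 88 genes were lower in every minP1_PDL1 mouse than in every Control mouse, against 5.74% of all genes. Each single agent also had such genes against Control in all kept cells, 31 of 88 for minP1 (5.63% of all genes) and 36 of 88 for PDL1 (6.31%). These comparisons share the Control mice. Against minP1, minP1_PDL1 had 5 of 88 (1.99%): Rpl31, Rpl6, Rps19, Rps27a and Rps29, named after their values were seen. Reads of the Mgp-led cluster were 16.7% to 28.9% of all in Control, 6.17% to 15.1% in minP1 and 4.62% to 26.4% in PDL1. Without the Mgp-led and Krt8-led clusters the share difference from Control went from -1.03 to -0.40 points for minP1. For PDL1 it went from -1.05 to -0.79, and for minP1_PDL1 from -1.504 to -1.25. The part of this make-up in these counts was not tested.

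In monocyte- and macrophage-like cells 51 of 88 genes were lower in every minP1_PDL1 mouse than in every Control mouse (4.29% of all genes), compared with 6 of 88 for minP1 (3.38%) and 19 of 88 for PDL1 (4.66%). Against minP1, minP1_PDL1 had 34 of 88 (2.76%). In NK-like cells 20 of 85 were lower than Control (3.34%) and 5 of 85 lower than minP1 (2.01%): Rpl12, Rpl23a, Rpl3, Rpl35 and Rpl8, named after their values were seen.

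Rps27a, which encodes a fusion of ubiquitin and a small subunit protein, had in all kept cells 1971, 1958 and 1938 CPM in Control, 1890, 1821, 1867 and 1869 in minP1, 1823, 1737 and 1834 in PDL1, and 1756, 1757, 1676 and 1729 in minP1_PDL1. Every treated mouse was below every Control mouse. The log2 change of minP1_PDL1 against Control was -0.17 ± 0.04 (SE; edgeR's quasi-likelihood test with Benjamini-Hochberg adjustment, adjusted p = 0.30), and DESeq2 gave an adjusted p of 0.00722.

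Rps12, a small subunit gene, had 4358, 4233 and 4153 CPM in Control and 3847, 3628, 3365 and 3540 in minP1_PDL1, with a log2 change of -0.23 that edgeR did not call. DESeq2 also called Rpl31, Rpl32, Rps12 and Rpl18 in all kept cells.

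In NK-like cells Rpl3, a core protein of the large subunit, had 2429, 2256 and 2334 CPM in Control and 2037, 2071, 2023 and 1903 in minP1_PDL1, with a log2 change of -0.25 (edgeR's quasi-likelihood test, adjusted p = 0.73). In neutrophil-like cells Rps15 had 2153, 2032 and 2014 in Control and 1309, 1268, 816 and 1557 in minP1_PDL1. These groups did not overlap, and edgeR called neither gene.

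In all kept cells of minP1_PDL1 against Control, edgeR called no gene of the lists outside the set, and 8 of 16 TOP-class, 11 of 23 biogenesis, 0 of 11 control and 7 of 78 mitochondrial ribosome genes had an unadjusted p under 0.05, against 10.4% of all genes. The medians of log2 change were -0.12 for 16 TOP-class genes, -0.32 for 23 ribosome biogenesis genes, -0.11 for 11 genes that control their translation and -0.10 for 78 mitochondrial ribosome genes.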

How the data were processed

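Single CD45+ cells of 14 mice were profiled with a BD Rhapsody whole-transcriptome assay and hashtag antibodies. The deposited table holds read counts per gene and barcode; per the labels, the authors mapped reads to the mm10 transcriptome, and per the submitters' processing notes cutadapt 2.10, Bowtie2 2.3.4.1 and Seurat 2.3.4 were used. Entries above 0 had a median of 10 reads, so values are reads, not molecules, and intervals on them would cover counting error only. The labels speak of separate runs but give none per mouse, so a run effect was not tested. 147 columns of no mouse (141 hashtag doublets, 6 without a hashtag) were left out.

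Cells with over 25% mitochondrial reads (383) or under 200 genes were removed. The rest were clustered without the ribosomal protein genes (2000 variable genes, 30 components, 20 neighbours, Leiden resolution 1; scikit-learn 1.9.0, leidenalg 0.10.2). Counts were summed per mouse and class (at least 10 cells) and tested with edgeR 4.0.16 (quasi-likelihood, TMM, filterByExpr, two-sided, Benjamini-Hochberg over all genes, threshold 0.05); class pairs had the mouse as a block. DESeq2 1.42.0, RLE scaling, no filter, at least 20 cells, other clusterings and each mouse left out were alternatives. Within-mouse doublets were not called. On simulated data for PDL1 against Control in all kept cells (18410 genes), 28 of 100 genes changed 2-fold and 55 of 100 changed 4-fold were recovered, with 2 false calls. In monocyte- and macrophage-like cells (15060 genes) 34 and 62 of 100 were, with 9 false calls. The changed genes were drawn at random from all genes tested, so these rates do not describe the ribosomal protein genes in particular.

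Genes named in class comparisons are the 5 of largest change in each direction past the threshold, and in treatment comparisons the called genes or the 3 of smallest p; stalk genes and paralogues are always named, and others are said to be chosen after their values were seen or were called by DESeq2. The genes and lists were chosen with earlier results of these data known. Some genes that this rule names are not reported here.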

Additional observations from a re-analysis of the deposited data

Results flagged for a closer look

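Of 36 groups of 4 mice or more tested for a mouse far from the others, 2 had one, and chance flags about 1 in 20 groups. In T-like cells, minP1 mouse 2 had a share of 12.9% (12.928%), and the other minP1 mice 14.9% to 15.3%. In the neutrophil-like cells that were not S100a8-led, minP1 mouse 3 had 12.9% (12.907%), and the other minP1 mice 10.4% to 10.7%.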

How the results depend on the processing

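With reads outside mitochondrial genes as the total, the mean share became 14.3% in all kept cells, 15.2% in T-like, 16.1% in NK-like, 12.5% in monocyte- and macrophage-like and 12.3% in DC-like cells. As a mean over cells it was 12.1%, 13.4%, 14.0% and 10.7% in the first 4 of these and 5.652% in neutrophil-like cells, and minP1 minus Control in monocyte- and macrophage-like cells was 0.20 points. Without non-immune clusters all kept cells had 12.5%, and minP1 minus Control was -0.40 points. S100a8-led cells alone had 1.83%. In monocyte- and macrophage-like cells minP1_PDL1 minus Control was -1.43 points without the cells with the most genes and -0.38 points within Chil3-led cells (added after seeing the data). It ran from -1.15 to -0.93 with each mouse left out, and in all kept cells from -1.71 to -1.24.

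For minP1_PDL1 against Control, DESeq2 called 5 genes in all kept cells, 1 in monocyte- and macrophage-like (also 1 against minP1) and 10 in neutrophil-like cells. Without a low-count filter T-like against monocyte- and macrophage-like cells had 10 higher and 27 lower, and DC-like cells 3 higher and 20 lower. NK-like against T-like cells had 1 lower when clustered with the set. DC-like cells had 1 lower with DESeq2, RLE scaling or at least 20 cells, and 5 when clustered with the set. With each mouse left out, the counts ran from 21 to 33 higher and 13 to 16 lower (T-like), 54 to 63 higher (NK-like), 67 to 75 lower (neutrophil-like), and 6 to 10 higher and 1 to 2 lower (DC-like). The causes were not tested. Of 951 alternatives for 47 results on named genes, 920 kept their side of the threshold, 24 lost it, 7 gained it and 0 reversed.

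Of 19 same-numbered pairs of mice from different groups, 5 had correlated deviations above 0.1 (-0.08 to 0.32). Among them were minP1 1 with PDL1 1 (0.20), minP1 1 with minP1_PDL1 1 (0.17) and PDL1 1 with minP1_PDL1 1 (0.32). Pairs of different numbers were not compared, so these values cannot decide whether the mouse numbers pair the groups. With the number as a replicate block, 0 genes of the set were called in 30 fits, and the median of minP1_PDL1 against Control in all kept cells was -0.15.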
